A study of Mus with 2 samples.

Results

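Matrix metalloproteinases (MMPs) and their tissue inhibitors (TIMPs) were followed in mouse bone marrow derived macrophages (BMDMs) that were polarized toward M2 macrophages with or without GW4064, a synthetic agonist of the farnesoid X receptor (FXR). The group was set by gene name, with earlier results of these data known. It holds 10 genes, namely Mmp2, Mmp8, Mmp9, Mmp12, Mmp13, Mmp14, Mmp19, Timp1, Timp2 and Timp3, which were read by 12 of the 39429 gene probes on the array. The cells came from male C57BL6/J mice aged 10 weeks, were grown for 7 d in M-CSF at 10 ng/mL and then kept for 24 h in IL-4 at 10 ng/mL, so that both groups carry the same M2 stimulus. One group received 10 µM GW4064 dissolved in DMSO during these 24 h and the other received DMSO. Each group is 1 array of total RNA, and how many mice gave the cells is not given in the sources used here. With 1 array per group there is no replicate error, no gene was tested, and each difference below describes these 2 arrays.

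MMPs are zinc proteases that cut collagen, gelatin, elastin and other proteins of the extracellular matrix. They are made as inactive proenzymes and become active when their propeptide is removed by another protease. TIMPs bind the active site of MMPs and block it, and macrophages use both sides of this system when they cross tissue or remodel a wound. Several MMPs and TIMPs are also made by fibroblasts and other stromal cells, and some are stored in neutrophil granules.

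The values are 1-colour intensities, the brightness of each spot after the scanner software had removed the background. Differences are given as log2 of the GW4064 array minus log2 of the DMSO array after the 75th percentile of each array had been set to the same level, so that 1 is 2-fold higher and -1 is 2-fold lower with GW4064. On both arrays the 12 probes stood well above background, and none of their spots was saturated or marked as faulty. Among probes printed 10 times, the difference had a median SD over the copies of 0.092 at signals of 100 to 1000 and of 0.072 at 1000 to 10000. The software's own error model gave each single-spot difference of these genes an error of 0.204 to 0.209. Over the copied probes this model error had medians of 0.204 to 0.205 at all signals above 100, above the SD of the copies. It was thus nearly constant and is not a spread measured here. Both figures leave out the spread between cultures. Areas where 2 or more other spots within 300 µm differed 8-fold or more between the arrays are here called flagged areas. They held 16.5% of the spots on the array. In all, 577 of 43020 spots differed 8-fold or more, dim spots included. The share was not compared with that of as many spots scattered at random, so the flag does not show damage to the slide. The single spots of Mmp2 and Mmp13 and 1 of the 10 spots of Mmp9 lay in flagged areas.

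Of the 10 genes, 1 was 2-fold or more higher with GW4064, namely Mmp9, and 2 were 2-fold or more lower, namely Timp3 and Mmp2. The background over all 13532 measured genes was 2.04% past 2-fold on the higher side and 2.71% on the lower side. At any size of difference 4 members were higher and 6 were lower, against 51.6% and 48.2% of all genes, and all 3 TIMP genes were on the lower side. The median log2 difference of the members was -0.24, against 0.0068 over all genes measured. Scaling to the added spike-in RNA in place of the 75th percentile moved the median of all probes measured on both arrays from 0.012 to -0.18 and that of the members to -0.43, with 1 member higher and 9 lower.

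**Figure D1:**
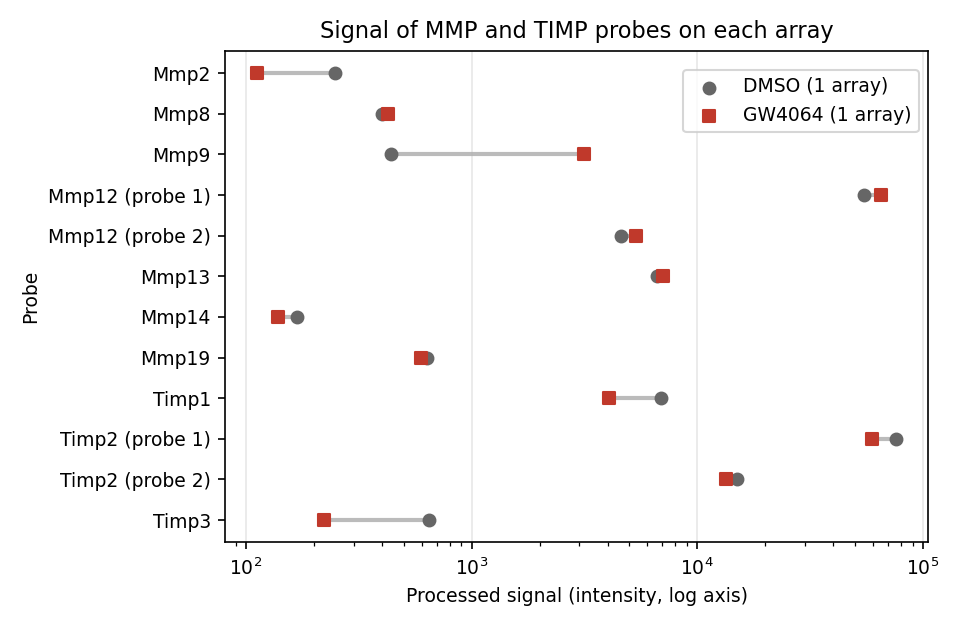
Processed signal of each MMP and TIMP probe (x axis, intensity on a log scale) on the DMSO array (grey circles) and the GW4064 array (red squares), 1 array each, joined by a line. The widest gaps are those of Mmp9, with the GW4064 array brighter, and of Timp3 and Mmp2, with the DMSO array brighter; brightness is not comparable between probes.

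The gelatinases Mmp9 and Mmp2, which digest denatured collagen and the type IV collagen of basement membranes, differed in opposite directions. Mmp9 was read at 10 spots. On the DMSO array its signal ranged from 408 to 467 with a median of 438, and on the GW4064 array from 2961 to 3432 with a median of 3147. The 10 spots are copies of 1 probe read with 1 RNA per array, and their ranges cover only the measurement on the slide. The log2 difference was 2.78, or 6.88-fold higher with GW4064, with an SD of 0.11 over the 10 spots and a range of 2.60 to 2.93. The 1 spot in a flagged area had 2.76 and the other 9 had a mean of 2.79. Mmp2 was read at 1 spot, with a signal of 249 with DMSO and 112 with GW4064. Its log2 difference was -1.21, or 2.32-fold lower with GW4064. Around this spot 5 others differed 8-fold or more, all of them brighter on the DMSO array, and the median difference of the 57 other spots within 300 µm was -0.030. No probe for Mmp2 was placed outside the flagged areas, so that its value without them cannot be given. With limma's normexp correction at offset 50, which draws dim signals together, the difference of Mmp2 was -0.90 and that of Mmp9 was 2.57.

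**Figure D2:**
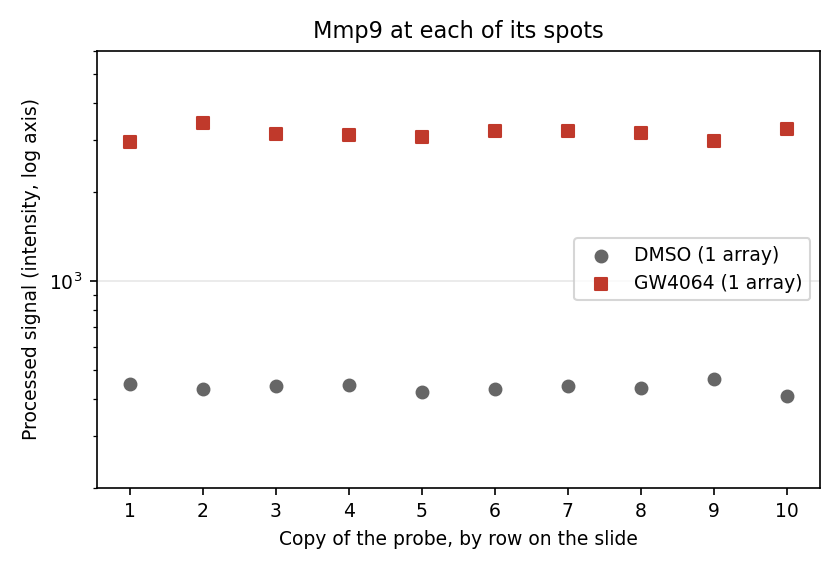
Processed signal of Mmp9 (y axis, intensity on a log scale) at each of its 10 copies, ordered by row on the slide, on the DMSO array (grey circles) and the GW4064 array (red squares). The GW4064 copies lie between 2961 and 3432 and the DMSO copies between 408 and 467.

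The collagenases and the macrophage elastase were nearly level between the arrays. Mmp8, the collagenase of neutrophil granules, had signals of 400 and 424 with DMSO and GW4064 and a log2 difference of 0.020. Mmp13, collagenase 3, had signals of 6658 and 7069 and a log2 difference of 0.021, measured at 1 spot in a flagged area with 2 large differences around it. These differences were smaller than the spread of copied probes and than the error of the software's model. Mmp12, the elastase for which macrophages are the main source, was read by 2 probes. The brighter one had signals of 54672 and 65153, and the other had 4587 and 5329. Their log2 differences of 0.19 and 0.15 pointed the same way and stayed below the model error of 0.204. They exceeded the spread of copied probes at their signals, 0.070 and 0.072. Mmp8, Mmp12 and Mmp13 became negative, at -0.17, -0.022 and -0.17, under spike-in scaling, and Mmp13 stood at -0.010 after normexp.

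In the mouse annotation these 3 genes lie in one uninterrupted run of 10 MMP genes, in the order Mmp13, Mmp12, Mmp1b, Mmp3, Mmp1a, Mmp10, Mmp8, Mmp27, Mmp20 and Mmp7. Of the run, 4 genes were measured on both arrays, too few to describe the run as a whole. Besides the 3 members, which were nearly level, this was Mmp10. It was lower by a log2 difference of -0.61, from faint signals of 84.1 with DMSO and 57.6 with GW4064. Mmp3 was measured with DMSO alone, Mmp1a and Mmp1b with GW4064 alone, and Mmp20 and Mmp7 on neither. Mmp27 had no probe matched by name. Mmp9 and Mmp2 lie outside this run.

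Mmp14 and Mmp19 were both slightly lower with GW4064. Mmp14, the membrane-bound protease that activates proMMP2 at the cell surface, had a signal of 168 with DMSO and 138 with GW4064. Its log2 difference of -0.34 exceeded the model error of 0.209. Mmp19, a secreted protease of basement membrane proteins, had signals of 634 and 595 and a difference of -0.16. In size this was below its model error of 0.204 and above the spread of copied probes at its signal, 0.092. Both kept their sign in all 11 alternative settings. Those on dim spots, marked spots, flagged areas and the brightest probe could not change their values.

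The 3 TIMP genes were lower on the GW4064 array, by unequal amounts. Timp3, whose product binds to the matrix and also blocks several ADAM proteases, had a signal of 646 with DMSO and 221 with GW4064. Its log2 difference was -1.61, or 3.05-fold lower, and 0 of the spots around it differed 8-fold or more. Timp1, the inhibitor that also binds proMMP9, had signals of 6876 and 4052 and a log2 difference of -0.83, or 1.78-fold lower. Under spike-in scaling Timp1 stood at -1.02 and would join the genes past 2-fold. Timp2, which binds proMMP2 and helps MMP14 to activate it, was read by 2 probes. The brighter probe had signals of 76153 and 59617 and a log2 difference of -0.42. The other had 15008 and 13399 and a difference of -0.23, close to the model error of 0.204. The 3 genes kept their sign in each alternative setting, between -1.80 and -1.44 for Timp3, -1.02 and -0.78 for Timp1, and -0.51 and -0.32 for Timp2. The filters on dim spots, marked spots and flagged areas could not change these values, so that the ranges come from the other settings.

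**Figure D3:**
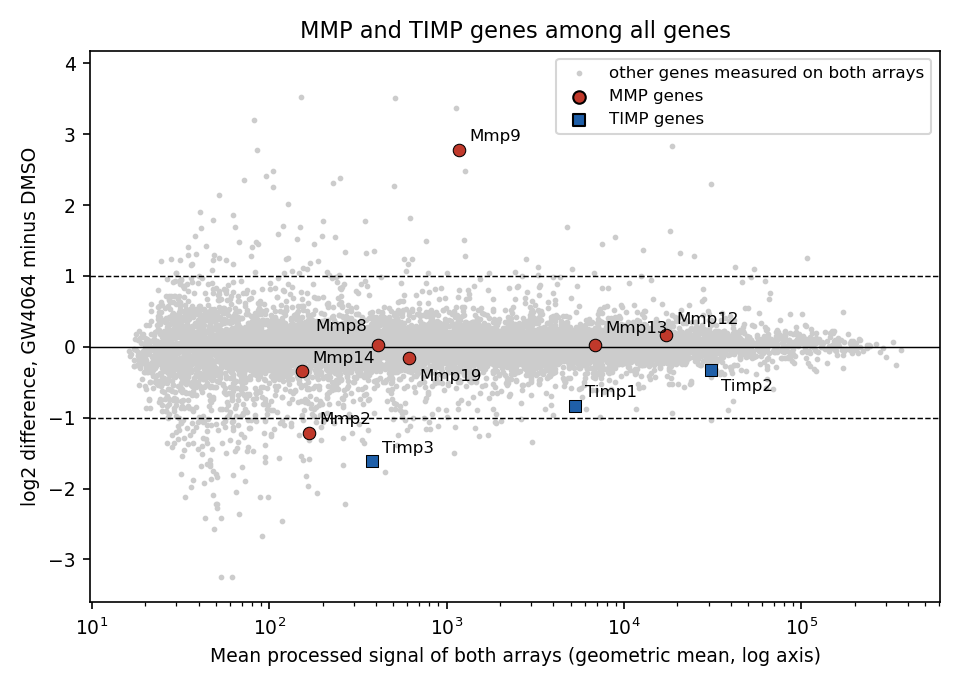
Log2 difference between the arrays (y axis, GW4064 minus DMSO) against the geometric mean signal of both arrays (x axis, log scale) for the 12399 genes measured on both arrays (grey), with MMP genes as red circles and TIMP genes as blue squares; dashed lines mark 2-fold. Mmp9 at 2.78 stands far above the line for 2-fold higher, and Timp3 at -1.61 and Mmp2 at -1.21 below that for 2-fold lower.

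Enzyme and inhibitor can be set against each other within an array, which removes any shift in scaling between the arrays. The log2 difference of Mmp9 minus that of Timp1 was 3.61, so that the ratio of the Mmp9 signal to the Timp1 signal was 12.2-fold higher on the GW4064 array. The same value for Mmp9 and Timp3 was 4.39. For Mmp2 the direction differed with the TIMP. It was -0.89 for Mmp2 and Timp2, a change of their ratio toward Timp2, and 0.40 for Mmp2 and Timp3, toward Mmp2. For Mmp12 and Timp1 it was 0.998, toward Mmp12. Mmp14 and Timp2 differed from each other by -0.020, within the model error of 0.292 for such a pair. These values describe transcripts and not protein or protease activity.

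Among the 12399 genes measured on both arrays, Mmp9 had the 7th largest rise and Timp3 the 39th largest decrease. The genes next to Mmp9 in that order were Bmp2 (3.21), Cxcl14 (2.84), Lmbr1 (2.77) and Gda (2.48), and those next to Timp3 were Mxra8 (-1.65), Chst8 (-1.62), Lox (-1.60) and Hoxc8 (-1.59). Lox encodes lysyl oxidase, which crosslinks collagen and elastin, and Bmp2 and Cxcl14 encode a secreted growth factor and a chemokine. The single spots of Bmp2, Lmbr1 and Hoxc8 lay in flagged areas. With 2 arrays, likeness here means a similar log2 difference and nothing more. Mmp2 stood at place 91 and Timp1 at place 241 from the largest decrease.

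The other genes of the MMP family were mostly faint in these cells. Of 18 further genes (the remaining MMPs, Timp4 and Reck, a membrane-anchored MMP inhibitor), 17 had a probe and 9 were measured on at least 1 array. Of these, 5 were higher and 4 lower. There was 1 gene 2-fold or more higher and 2 lower, against 2.04% and 2.71% of all genes measured. Mmp3, stromelysin 1, had a signal of 47.4 with DMSO and was not well above background with GW4064, at least 3.28-fold lower. Mmp23 had signals of 110 and 56.7 and a log2 difference of -1.03. Mmp16, a membrane-bound MMP, was not well above background with DMSO and had a signal of 36.4 with GW4064. This was at least 2.21-fold higher, at a spot in a flagged area. Mmp10, stromelysin 2, had -0.61, the probes for Mmp11 had -0.24 and -0.54, and Mmp17 had 0.087. Mmp1a, Mmp1b and Reck were measured with GW4064 alone, at least 1.58-fold, 1.15-fold and 1.20-fold higher, Mmp1b at a spot in a flagged area. The median of these 9 genes was 0.087, and it turned to -0.10 under spike-in scaling and to -0.060 after the normexp correction. Over other sets of the same list it was -0.54 for the 7 genes measured outside the flagged areas, of which 3 were higher and 4 lower. It was -0.50 for the 4 genes measured on both arrays. For all 17 genes with a probe, when no filter on dim probes was used, it was -0.15. Timp4 was below that level on both arrays.

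Proteins that activate, dock, clear or trap MMPs were more often lower than higher. Of 20 such genes 18 were measured, 15 lower, 2 higher and 1, Spock1, at a bound of 0, with a median log2 difference of -0.28 against 0.0068 over all genes. Over all genes measured, 48.2% were lower and 51.6% higher. Of the 18 genes, 3 were 2-fold or more lower and 0 were 2-fold or more higher, against 2.71% and 2.04% of all genes measured. Serpinb2, an inhibitor of the urokinase that helps to start the cascade of proMMP activation, had a log2 difference of -2.07, from signals of 372 and 92.9. A2m, a plasma protein that traps proteases, was at least 7.56-fold lower at 1 spot in a flagged area. Plau, the urokinase, had 0.24 and its receptor Plaur -0.12, and Furin, which cuts the propeptide of membrane-bound MMPs, had -0.22. Lcn2, which forms a complex with MMP9, had -0.72, whereas Mmp9 itself had 2.78. Without the flagged areas 13 genes of this list were measured, 11 lower and 1 higher, with a median of -0.22.

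**Figure D4:**
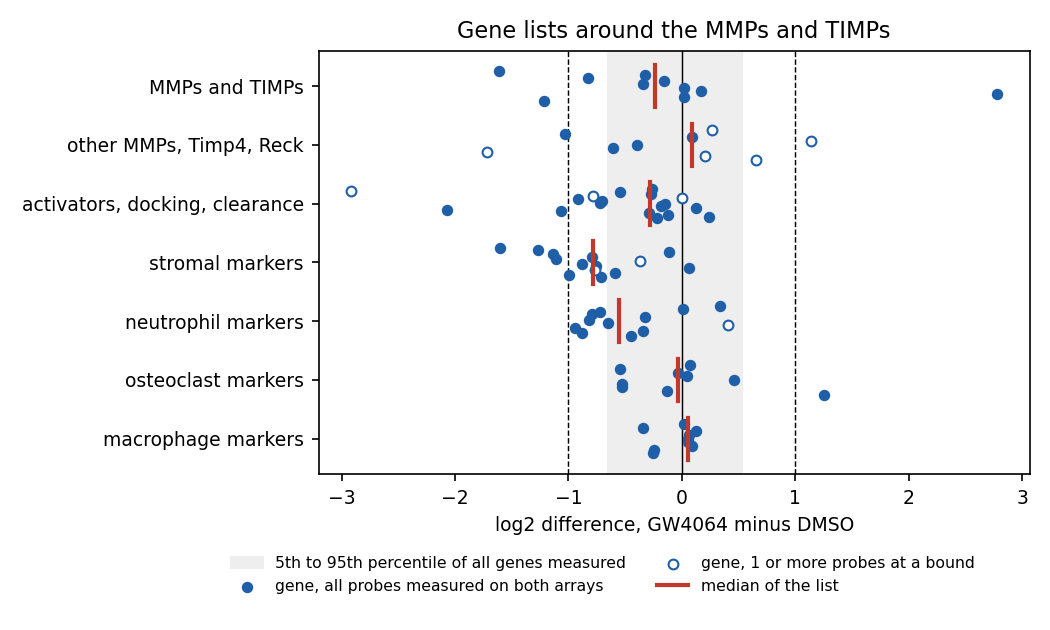
Log2 difference (x axis, GW4064 minus DMSO) of each measured gene in the list named on the y axis, as filled points where all its probes were measured on both arrays and open points where 1 or more gave a bound. Red bars are list medians, the grey band spans the 5th to 95th percentile of all genes measured, -0.65 to 0.53, and dashed lines mark 2-fold; the median lies at -0.24 for MMPs and TIMPs and at -0.78 for stromal markers.

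Markers of cell types that make MMPs and TIMPs were read beside them. Macrophage markers were well above background on both arrays, with DMSO signals from 202 at a probe of Itgam to 169338 at a probe of Csf1r. Of 10 such genes 9 had a probe and were measured, 6 higher and 3 lower. Of these, 0 differed 2-fold or more, and their median was 0.055, which became -0.0048 after quantile normalization and -0.14 under spike-in scaling. Itgam, Fcgr1, Mertk, Lyz2 and Cd14 had 0.055 to 0.13. Lgals3 had 0.016, Csf1r, the receptor for M-CSF, -0.24, Adgre1, a surface receptor of mature mouse macrophages, -0.25 and Mrc1, the CD206 antigen, -0.34. Their summed signal, with the 75th percentile of each array set to 1000, was 427506 with DMSO and 398264 with GW4064. Such a sum follows its brightest probes and serves to compare the arrays, not the genes.

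Markers of fibroblasts and marrow stromal cells were lower with GW4064, on the same side as Mmp2, Mmp14, Mmp19 and the 3 TIMPs. Of 15 genes 14 were measured and 13 were lower, against 48.2% of all genes, with a median of -0.78. In this list 4 were 2-fold or more lower, against 2.71% of all genes. The summed signal of the list on that scale was 32571 with DMSO and 17500 with GW4064. Sparc had a mean of -0.80 over its 2 probes and Col1a2 had -0.99, and the largest differences were those of Lox (-1.60) and Fbln2 (-1.27). Lum, a defining marker of fibroblasts, was too dim to be measured on both arrays, and Pdgfra had 0.065 at a spot in a flagged area. The differences of Timp1 (-0.83), Mmp2 (-1.21) and Timp3 (-1.61) were larger than the list median, and those of Mmp14 (-0.34), Timp2 (-0.32) and Mmp19 (-0.16) smaller. In bulk RNA, fewer cells of a type and less RNA per cell cannot be told apart, and the part of stromal cells in the lower MMP and TIMP signals was not tested.

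Neutrophil markers, which bear on Mmp8 and Mmp9, were also mostly lower. Of 13 genes 12 were measured, 9 lower and 3 higher, against 48.2% and 51.6% of all genes, with a median of -0.55. Their summed scaled signal was 60269 with DMSO and 56163 with GW4064, in which the probe of Csf3r (0.011) weighed most. The list shares Lcn2 with the genes that dock or clear MMPs. S100a9 had -0.88 and Mpo, the myeloperoxidase of primary granules, -0.94. On the higher side lay Csf3r, which was nearly level, Cxcr2, a chemokine receptor, with 0.34, and Prtn3. Prtn3, a granule protease, was at least 1.33-fold higher at a spot in a flagged area. The number of higher genes was 2 under quantile, median, loess and spike-in scaling and 1 after normexp. Mmp8 stayed level and Mmp9 was higher, and the part of neutrophils in either value was not tested. Osteoclast markers, which are shared with macrophages that fuse, had 9 of 10 genes measured, 4 higher and 5 lower, with a median of -0.036 that turned to 0.019 with the brightest probe of each gene. Their summed scaled signal was 232076 with DMSO and 373282 with GW4064, the rise coming from Acp5, the tartrate-resistant acid phosphatase, whose 2 probes had 1.21 and 1.29. Of the other genes of that list, Atp6v0d2 had 0.042 and Itgb3, which also stands among the docking genes above, -0.54.

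**Figure D5:**
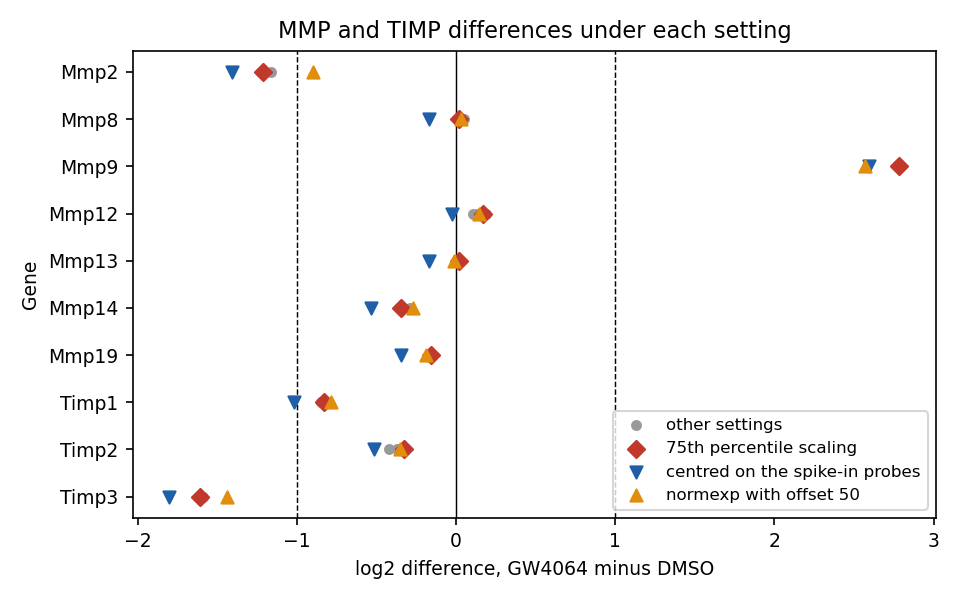
Log2 difference (x axis, GW4064 minus DMSO) of each MMP and TIMP gene under the main setting (red diamonds), centred on the spike-in probes (blue triangles), after normexp with an offset of 50 (orange triangles) and under the other settings (grey); dashed lines mark 2-fold. Mmp9 stays between 2.57 and 2.79, Timp3 between -1.80 and -1.44, and Mmp2 between -1.40 and -0.90.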

How the data were processed

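The members and gene lists were chosen with earlier results of these data known. Per the file headers, the authors deposited spot intensity values from Agilent Feature Extraction 10.7.1.1 for 1 array per condition, with background and trends within the array removed and without scaling between arrays; the normalization used for the paper is not given in the sources used here. The authors also deposited a log2 table, centred per probe on an unstated baseline (column medians 0.035 for DMSO and -0.051 for GW4064). Its difference between arrays matched the difference computed here for all 39200 compared probes within 0.001, apart from a constant of 0.0022, which settles scale and direction. Groups were taken from the treatment label, since the description of the GW4064 sample repeats that of the DMSO sample.

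Each array's log2 processed signal minus its 75th percentile over non-control spots (1209 on the DMSO array, 1265 on the GW4064 array) was used. Spots marked as non-uniform or as outliers among copies were left out (399 and 207 of 43020) and spots of a probe averaged. A probe was well above background when most of its spots were (57.4% and 58.5% of probes). Where this held on 1 array, the dim side took its own value or, if higher, that of the faintest probe still well above background on that array (signals of 15.7 and 15.1), giving an "at least" fold. A gene is the mean of its probes measured on at least 1 array. RefSeq accessions of GRCm38.p6 named 26445 of 39200 probes; the array design used mm9, so no coordinates are given. Named genes were all members, genes past 2-fold in the lists other than cell type markers, genes of the other MMP list measured on both arrays, and rank neighbours. From the marker lists the brightest and most different genes were named, so that not every marker past 2-fold is named. Other genes were added after their values were seen. The values of 1 listed gene are not reported here. The precision is limited by the number of arrays, and no test was made. The alternatives were quantile, median, loess and spike-in scaling, the deposited table, normexp and other filters on dim spots, marked spots and flagged areas. The brightest probe per gene and thresholds of 1.5-fold and 4-fold were used as well. The calculations were tested on simulated data. Normexp ran in limma 3.58.1 under R 4.3.3, and the rest in Python 3.11.15 with pandas 2.3.3, numpy 2.4.6, statsmodels 0.14.6 and, for figures, matplotlib 3.10.9.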

Additional observations from a re-analysis of the deposited data

How the results depend on the processing

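No paired analysis was possible because there is 1 array for DMSO and 1 for GW4064. Of the 10 members, Mmp9 remained 2-fold or more higher in every setting tried, 4-fold included. Timp3 remained 2-fold or more lower in every setting but the 4-fold threshold, where 0 members were lower. The filters on dim and marked spots could not change any member, since all their probes were well above background and unmarked on both arrays. The count of lower members dropped from 2 to 1, Timp3 alone, after the normexp correction, where Mmp2 stood at -0.90. The same drop occurred when flagged areas were left out, which removed the single spots of Mmp2 and Mmp13. The count was 3 at a threshold of 1.5-fold or under spike-in scaling, with Timp1 added. The members' median of -0.24 moved to -0.43 under spike-in scaling, which shifts every gene alike. Mmp13 also changed sign after the normexp correction, to -0.010. Over all probes, 510 were 2-fold or more higher and 659 lower. There were 379 and 905 under spike-in scaling, 1637 and 1664 without a filter on dim probes, and 178 and 278 among probes measured on both arrays. The counts were 112 and 120 after normexp, 277 and 338 without flagged areas, 1117 and 1317 at 1.5-fold, and 118 and 156 at 4-fold.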

Other observations

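The ADAM and ADAMTS proteases, relatives of the MMPs that shed cell surface proteins or cut proteoglycans, were close to level as a group. Of 22 genes 14 were measured, 7 higher and 7 lower, with a median log2 difference of 0.00093, and 0 differed 2-fold or more. The median changed sign with the setting, and was -0.19 under spike-in scaling. Adam10, a sheddase of many surface receptors, had a log2 difference of 0.59, from signals of 7635 and 12011. Adamts2, which removes the amino-terminal propeptide of fibrillar procollagen, stood just short of 2-fold lower, with signals of 1025 and 537, and Adam19 had -0.95. Adam17, the TNF sheddase that TIMP3 inhibits, had -0.044 and 0.30 on its probes.

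In the annotation Timp1, Timp3 and Timp4 each lie within a synapsin gene. Syn1, which holds Timp1, had a log2 difference of -0.10, against -0.83 for Timp1. Syn3, which holds Timp3, had -0.43 on a probe measured on both arrays, with faint signals of 26.4 and 20.5, against -1.61 for Timp3. On a probe in a flagged area Syn3 was at least 1.31-fold lower. Syn2, which holds Timp4, had -1.66 at 1 spot in a flagged area, and a further probe for it was too dim to be measured.

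Dendritic cell markers had 5 of 8 genes measured, 2 higher and 3 lower, with a median of -0.30. Flt3 was at least 4.94-fold higher at a spot in a flagged area, a further probe was too dim to be measured, and Fscn1 had -0.79. Itgax, which macrophages share, had -0.30.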
